A study of Mus musculus with 36 samples.

Results

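Dusk was compared with dawn in the livers of mice that lack the clock gene Bmal1, using the 6 knockout libraries taken at Zeitgeber time 12 (ZT12, lights off) and ZT0 (lights on), out of 36 in the series. The libraries were chosen by their labels, genotype Bmal1 KO and collection time ZT12 or ZT0, with 3 mice at each time. The series covers wild-type (WT) and Bmal1 KO C57BL/6 mice at 6 times, with 3 mice of each genotype at each time. Lights were on for 12 h and off for 12 h each day, and food and water were always present, so all groups shared a light cycle and could feed at will. The labels call the knockout prenatal and also abbreviate it cKO, and they do not say in which cells the gene was removed or whether any clone or line stands behind it.

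At ZT12 the knockout mice were a female of 8 weeks and 13.7 g, a female of 13.9 weeks and 18.1 g, and a male of 13.9 weeks and 18.4 g (replicates 1 to 3). At ZT0 they were a male of 9.3 weeks and 26.5 g, a male of 13.9 weeks and 25.2 g, and a female of 13.9 weeks and 19.7 g. Body weights at the 2 times therefore did not overlap, and weight and time cannot be told apart in these 6 mice. Replicates 2 and 3 of both times form a set of 4 mice of one age with 1 female and 1 male at each time. The WT groups used for comparison were 1 male and 2 females at ZT12 and 1 female and 2 males at ZT0. At ZT12 the WT male was 10.9 weeks and 29.2 g, and the females were 13.9 and 10.9 weeks (22.4 and 19.8 g). At ZT0 the WT female was 13.9 weeks and 21.6 g, and the males were 6.4 and 13.9 weeks (23.7 and 25.4 g). Ages were therefore not matched between the WT times or between the genotypes. Replicate numbers follow accession order and pair no mice.

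BMAL1, listed in the table as Arntl, pairs with CLOCK or NPAS2 and binds E-box sequences to drive the Per, Cry, Nr1d (REV-ERB), Dbp and Tef genes. PER and CRY proteins then inhibit the pair, and REV-ERB proteins repress Arntl and Npas2, which closes the loop. Liver genes also follow the day through cues that need no liver clock, such as feeding, body temperature and glucocorticoid hormone.

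Total counts of the 6 libraries lay between 12719384 and 12757144, and 13201 of the 21654 genes had enough reads to be tested. Sex-linked reads matched the labelled sex in 6 of 6 libraries. The knocked-out gene checks the genotype only in part, because reads of Arntl were still counted in each knockout library. Its level was 14.6, 19.1 and 16.2 CPM (reads scaled to a common library size with TMM factors) at ZT0 and 24.01, 16.7 and 18.3 CPM at ZT12 in the knockouts. In WT it was 33.1 to 34.9 CPM at ZT0 and 1.24 to 5.23 CPM at ZT12, so the knockout values lay between the WT dawn and dusk values and the 2 knockout groups overlapped. The table does not show whether these transcripts encode a working protein. Liver identity was read from 9 hepatocyte markers found in the table, whose summed level was 31437 to 32262 CPM at ZT0 and 28258 to 29839 CPM at ZT12.

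No gene passed the test between dusk and dawn in the knockout. In edgeR's quasi-likelihood test on all 36 libraries, with labelled sex as a covariate, 0 of 13201 genes (0%) had a Benjamini-Hochberg adjusted p under 0.05, and the smallest was 0.131. Without adjustment 1364 genes (10.3%) had p under 0.05, of which 649 (4.92%) were higher and 715 (5.42%) lower at ZT12. DESeq2 on the same libraries called 44 genes, 19 higher and 25 lower. For 2539 genes (19.2%) the 3 values of one time did not overlap those of the other, with 1273 (9.64%) all higher and 1266 (9.59%) all lower at ZT12. In WT, the same fit called 576 genes (4.36%), 294 higher and 282 lower at ZT12. The WT count was 260, 372 and 379 without WT ZT0 replicates 1, 2 and 3, and 294 without WT ZT12 replicate 3. These tests measure the spread between mice of a group, which the labels list one by one.

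The difference between the genotypes was tested directly. In the interaction of genotype and time, 178 genes (1.35%) were called, 113 with a more positive and 65 with a more negative dusk-dawn difference in the knockout. Of these 178 genes, 158 were also called in WT, and in 162 the WT difference was the larger in size. Over the 576 genes called in WT, the median size of the log2 difference was 1.005 in WT, and in the knockout the median difference in the WT direction was 0.08. These genes were chosen by their WT difference, so the WT median is high by that choice. Over all genes tested the median size was 0.22 in WT and 0.21 in the knockout, and the rank correlation of the 2 differences was 0.183. In the knockout 354 of the 576 had the WT sign, and 52 of those had an unadjusted p under 0.05, as did 27 with the opposite sign; over all genes 10.3% had such a p. The interaction count was 107 without KO ZT0 replicate 3, 113 without KO ZT12 replicate 2, 111 without WT ZT12 replicate 3, and 114, 117 and 117 without WT ZT0 replicates 1, 2 and 3.

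**Figure D1:**
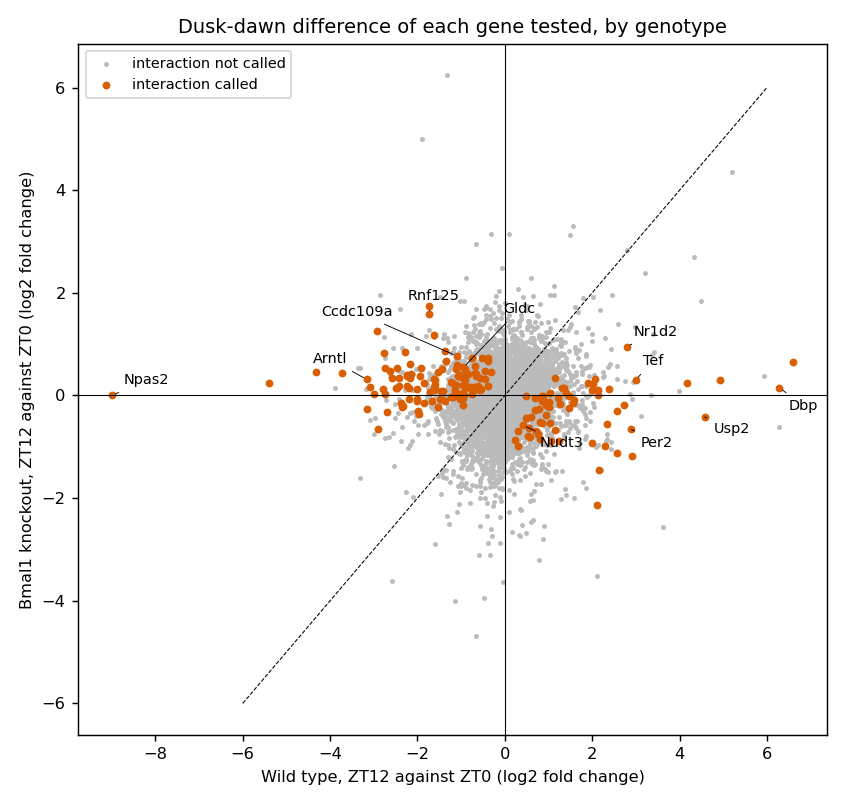
Each point is 1 of 13201 genes tested, with its log2 fold change of ZT12 against ZT0 in wild type on the horizontal axis and in the Bmal1 knockout on the vertical axis; the dashed line marks equal change. The 178 genes with a called interaction (orange) lie farther from 0 on the wild-type axis than on the knockout axis in 162 cases, with Dbp at 6.29 in wild type and 0.15 in the knockout.

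The core clock genes were read liver by liver. E-boxes (CACGTG, read on both strands, with no overlap counted between motifs) were found in the promoters of 5 of the 17 core clock genes that match the RefSeq promoter table, which holds 250 bases before and 50 after each start site. The share over all 32851 promoters of that table was 7.15%. The 17 genes had 22 promoters, and a gene counted if any of its promoters held the motif. This count by gene and the share by promoter are therefore not on one scale. These 4 stretches are printed because their genes are the direct outputs and inhibitors described next; capitals mark the motif, here the E-box and, in Per3, 2 D-boxes (TTANGTAA), the site of DBP and TEF, which 2.32% of promoters hold. All are on GRCm38.p6, not the build of the counts, and are read 5′ to 3′ along the gene.
Tef, chr15:81802526-81802571, plus strand: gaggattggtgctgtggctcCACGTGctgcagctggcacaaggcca
Per1, chr11:69098763-69098808, plus strand: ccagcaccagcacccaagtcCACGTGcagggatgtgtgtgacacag
Cry1, chr10:85185089-85185134, minus strand: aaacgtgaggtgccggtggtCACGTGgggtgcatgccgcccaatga
Per3, chr4:151044796-151044890, minus strand: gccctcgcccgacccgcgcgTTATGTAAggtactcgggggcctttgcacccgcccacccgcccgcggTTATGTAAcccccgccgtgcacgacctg

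Dbp, a transcription factor driven by E-boxes (chr7:52960458-52965525 on mm9), was at 7.31, 3.94 and 3.51 CPM at ZT0 and 4.31, 7.09 and 5.12 CPM at ZT12 in the knockout. The groups overlapped, and the log2 fold change was 0.15 ± 0.31 (SE). In WT the level was 0.585 to 1.18 CPM at ZT0 and 51.1 to 80.7 CPM at ZT12, and the interaction was -6.14 ± 0.47 (adjusted p = 1.9e-09). The knockout mean at the other 4 times stayed between 3.59 and 7.70 CPM, whereas the WT mean reached 249.9 CPM at ZT8. Tef, its relative with the E-box above, was at 135, 116 and 114 CPM at ZT0 and 185, 139 and 127 CPM at ZT12 in the knockout, against 33.3 to 42.9 and 271 to 363 CPM in WT. Both output genes thus had overlapping values and no called difference in the knockout, at a level that lay between the WT extremes.

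The inhibitors of the loop gave 3 patterns. Per3 was at 9.32, 8.67 and 7.61 CPM at ZT0 and 13.2, 12.1 and 8.80 CPM at ZT12 in the knockout, with overlapping values and a log2 fold change of 0.30 ± 0.32. Per2 was at 37.0, 61.0 and 61.8 CPM at ZT0 and 25.6, 33.2 and 37.8 CPM at ZT12, a log2 fold change of -0.66 ± 0.42, while in WT it was called higher at ZT12 by 2.90. The interaction for Per2 was -3.56 ± 0.60 (adjusted p = 0.000947), so dusk and dawn were in the reverse order in the knockout means, although the knockout groups overlapped. Per1 could not be placed in the knockout at dusk: its 3 livers gave 78.7, 7.01 and 26.5 CPM, around dawn values of 24.5, 18.99 and 39.9 CPM. Cry1 was at 67.1 to 80.1 CPM at ZT0 and 76.1 to 117 CPM at ZT12 in the knockout, and at 22.7 to 31.1 and 20.8 to 30.1 CPM in WT, so its knockout level was above WT at both times and the dusk-dawn interaction was 0.38 ± 0.28 (adjusted p = 0.749).

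The REV-ERB genes and their targets completed the loop. Nr1d2 was the only core clock gene, of 21 tested, with an unadjusted p under 0.05 in the knockout (0.00635, adjusted p = 0.274). It was at 7.47, 5.99 and 3.51 CPM at ZT0 and 18.5, 9.20 and 7.04 CPM at ZT12, a log2 fold change of 0.95 ± 0.32. Without KO ZT12 replicate 1, the highest of these livers, no core clock gene had an unadjusted p under 0.05. In WT Nr1d2 was higher by 2.79, and the interaction was -1.84 ± 0.43 (adjusted p = 0.0234). Nr1d1 was at 0.946 to 2.49 CPM at ZT0 and 1.92 to 3.39 CPM at ZT12 in the knockout, against 4.36 to 17.3 and 11.8 to 30.3 CPM in WT. Npas2, which REV-ERB proteins repress, was at 43.1, 37.3 and 48.8 CPM at ZT0 and 48.5, 40.2 and 45.6 CPM at ZT12. In WT Npas2 was at 14.9 to 21.6 CPM at ZT0 and had 1 read in all 3 livers at ZT12.

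Over the 21 core clock genes, 12 had a called interaction. The median log2 fold change of the list was 0.24 in the knockout and 1.30 in WT, where 12 were called higher and 4 lower at ZT12. The median over all tested genes in the knockout was -0.00025.

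**Figure D2:**
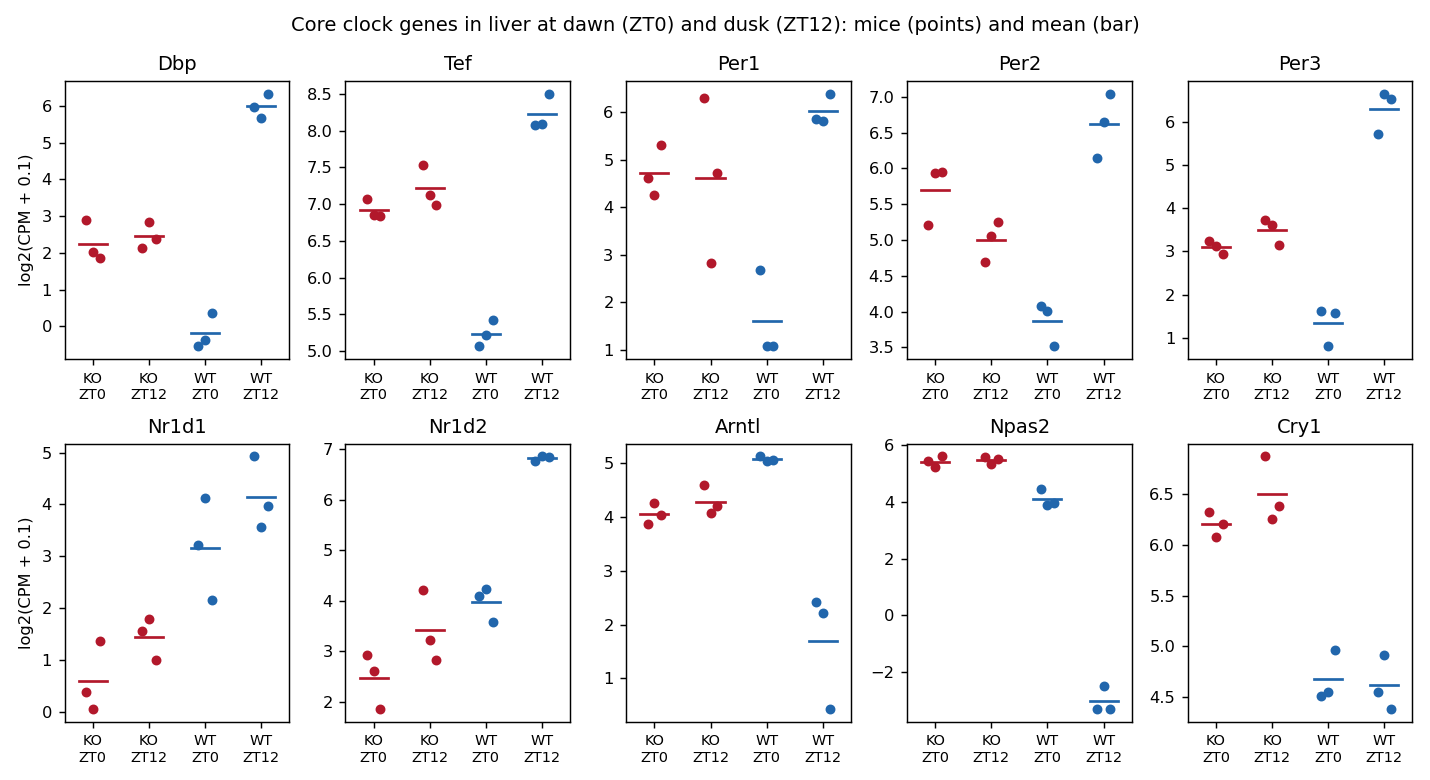
Expression of 10 core clock genes as log2(CPM + 0.1), with 1 point per mouse and a bar at the mean, at ZT0 and ZT12 in Bmal1 knockout (KO, red) and wild-type (WT, blue) liver; each panel has its own axis. KO points of both times overlap in all 10 panels, while WT points of Dbp, Tef, Per1, Per2, Per3, Nr1d2, Arntl and Npas2 separate by time.

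Beyond the clock list, the 10 genes with the smallest interaction p included 4 others, named by a rule on that p. Chka, choline kinase, was at 145, 242 and 148 CPM at ZT0 and 227, 225 and 189.9 CPM at ZT12 in the knockout, and at 162 to 174 and 25.3 to 33.3 CPM in WT. Clpx, a mitochondrial chaperone-protease subunit, was at 445 to 532 CPM at ZT0 and 587 to 640.1 CPM at ZT12 in the knockout, and at 383 to 404 and 58.1 to 93.6 CPM in WT. Cldn1, a tight junction protein, and Dtx4, a ubiquitin ligase, had interactions of 2.45 ± 0.29 and 2.90 ± 0.35. All 4 were called lower at dusk in WT, and the adjusted p of their interactions lay between 1.7e-06 and 7.15e-06. Within the clock list, Usp2, a deubiquitinase, had an interaction of -4.99 ± 0.55.

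The spread used by the test depended on which libraries shared it. The ZT16 and ZT20 libraries of both genotypes stood apart from the others: the rank correlation over genes of a library's deviation with transcript GC content was -0.598 to -0.151 in them and 0.166 to 0.467 in the other 24. When the same model was fitted to the 24 libraries of ZT0 to ZT12, the biological coefficient of variation was 0.164 instead of 0.227, and 142 genes (1.08%) were called between dusk and dawn in the knockout. Of these, 77 (0.583%) were higher and 65 (0.492%) lower at ZT12, 45 differed by 2-fold or more, and 138 had values that did not overlap. The count was not stable: it was 292, 6 and 0 without KO ZT0 replicates 1, 2 and 3, and 4, 46 and 509 without KO ZT12 replicates 1, 2 and 3. With body weight as a further covariate it was 0, and with the 13.9-week mice alone it was 2. A fit on the libraries of ZT0 and ZT12 alone, which also leaves out ZT16 and ZT20, called 0 genes in the knockout. Below, "rose" and "fell" refer to this edgeR fit on 24 libraries; none of these genes was called in the edgeR fit on 36.

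Interferon-induced genes were the list with the lowest median, and all 16 tested had a negative log2 fold change in the knockout. These genes are the antiviral program that interferons switch on through IRF9 and IRF7. In the 36-library fit their median was -0.98, 13 of 16 were lower at an unadjusted p under 0.05 against 5.42% of all genes, and none was called. In 10 of 16 all dusk values lay below all dawn values, against 9.59% of all genes. In WT the median was -0.33, and 1 gene of the list, Rsad2, was called lower. The list had been examined in these data before, so its counts are a description.

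The common element of such promoters, the interferon-stimulated response element (GAAA, then 2 of any base, then GAAA, on either strand, a motif added after the values were seen), stood in the promoters of 9 of the 14 list genes matched to RefSeq and in 3.44% of all promoters. The 14 genes had 16 promoters and were counted by gene, whereas the share is by promoter. Promoters of 3 genes are printed to show the tandem form of the element, with matches in capitals, overlapping matches merged, on GRCm38.p6.
Ifit1, chr19:34640765-34640833, plus strand: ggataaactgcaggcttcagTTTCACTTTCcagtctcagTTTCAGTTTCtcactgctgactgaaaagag
Isg15, chr4:156200855-156200916, minus strand: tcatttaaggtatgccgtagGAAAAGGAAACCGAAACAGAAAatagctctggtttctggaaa
Bst2, chr8:71537567-71537622, minus strand: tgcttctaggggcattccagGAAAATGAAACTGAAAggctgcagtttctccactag

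Irf7, the factor that amplifies the response (chr7:148448605-148452380 on mm9), was at 34.7, 31.1 and 32.4 CPM at ZT0 and 12.5, 19.5 and 19.5 CPM at ZT12 in the knockout. Every dusk liver was below every dawn liver, and the log2 fold change was -0.99 ± 0.24 (adjusted p = 0.134 over 36 libraries and 0.0291 over 24). In WT Irf7 was at 23.3 to 34.6 CPM at ZT0 and 31.3 to 42.3 CPM at ZT12, and it was the 1 gene of the list with a called interaction (-1.29 ± 0.33, adjusted p = 0.0445). That call was narrow: without KO ZT12 replicate 1 the interaction was -1.08 with an adjusted p of 0.135. Irf9, a DNA-binding factor of the interferon signal, was at 39.9, 33.6 and 41.2 CPM at ZT0 and 20.3, 28.4 and 24.1 CPM at ZT12, and it fell (adjusted p = 0.0234; 0.134 over 36).

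Among the effectors, Ifit1, which binds viral RNA, was at 11.6, 11.2 and 12.9 CPM at ZT0 and 2.85, 7.32 and 5.04 CPM at ZT12. Isg15, a ubiquitin-like modifier, was at 13.3, 10.2 and 10.1 CPM at ZT0 and 2.77, 8.22 and 6.16 CPM at ZT12. Bst2, which tethers virus particles, was at 208, 198 and 225 CPM at ZT0 and 86.3, 152 and 167 CPM at ZT12. In each of these 3, with the sequences above, the groups did not overlap and the 8-week female at ZT12 was the lowest liver. Besides Irf7, the genes of the list that fell in the fit on 24 libraries were Ifi44, Gbp3 and Oas1a, by 1.85, 1.96 and 2.13 on the log2 scale; in the 36-library fit their adjusted p was 0.134.

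Genes outside the list gave similar values, and they were picked after their values were seen. H2-K1 and H2-D1, the class I antigen-presenting chains, were at 899.8 to 1265 and 366 to 544 CPM at ZT0 and at 573 to 815 and 278 to 364 CPM at ZT12, and both fell in the fit on 24 libraries (adjusted p = 0.0399 and 0.033; 0.234 and 0.221 over 36). Closely related copies can share reads there, as can Oas1a and Oas1g or Apol9a and Apol9b. How the counting treated such reads is not given, so the split within each pair is uncertain. Il18bp, the secreted inhibitor of interleukin 18, was at 6.91, 8.51 and 12.6 CPM at ZT0 and 3.46, 4.68 and 4.88 CPM at ZT12.

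Other features moved with these genes. The summed level of the interferon list was 416 to 496 CPM at ZT0 and 197 to 349 CPM at ZT12. Without KO ZT12 replicate 1, its median was -0.64 and 6 of 16 genes had an unadjusted p under 0.05. In the 13.9-week mice alone the median was -0.60 with 8 genes, and with body weight as a covariate it was -0.91 with 10. The 13 tested Kupffer cell and macrophage markers had a median of -0.55 and a summed level of 163 to 303 CPM at ZT0 and 96.4 to 239 CPM at ZT12; their median was -0.15 without KO ZT12 replicate 1. Lymphocyte markers, 7 tested, had a median of 0.52, with a summed level of 5.78 to 8.56 CPM at ZT0 and 3.31 to 13.9 CPM at ZT12. The 4 tested neutrophil and monocyte markers had a median of 0.53, with 2 positive and 2 negative. Their summed level was 1.53 to 2.60 CPM at ZT0 and 1.39 to 6.56 CPM at ZT12. Without KO ZT12 replicate 3 these 2 medians were -0.07 and -0.24. Camp, a further neutrophil marker, was at 0 in all 6 libraries. In bulk liver, fewer cells of a type and less RNA per cell cannot be told apart, and the part of these features in the interferon values was not tested.

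**Figure D3:**
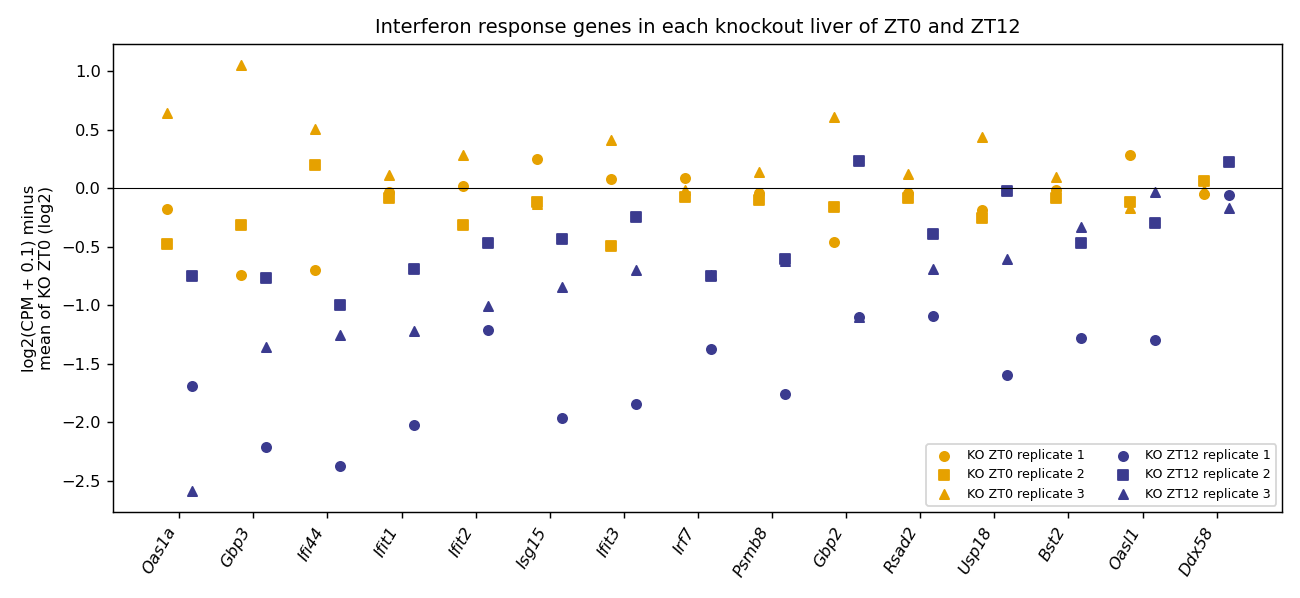
Each knockout liver of ZT0 (yellow) and ZT12 (dark blue) for 15 of the 16 tested interferon response genes, as log2(CPM + 0.1) minus the mean of the 3 ZT0 livers; marker shapes are replicates. In 10 of these genes all ZT12 points lie below all ZT0 points, and the ZT12 replicate 1 (circle) is the lowest point of most genes.

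Most heat shock genes had a negative log2 fold change at dusk in the knockout, 18 of 22 tested. These genes encode chaperones that the factor HSF1 switches on in warmth or protein stress, and body temperature of mice is itself rhythmic. Of the 22, 7 were lower and 1 higher at an unadjusted p under 0.05 in the 36-library fit, against 5.42% and 4.92% of all genes, the median was -0.30, and none was called. In 10 of 22 all dusk values lay below all dawn values, against 9.59% of all genes. Without KO ZT12 replicate 1 the counts were 6 lower and 1 higher.

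The inducible HSP70 genes led the list. Hspa1b (chr17:35093381-35096183 on mm9) was at 12.4, 20.8 and 21.4 CPM at ZT0 and 1.69, 6.11 and 4.64 CPM at ZT12, a log2 fold change of -2.03 ± 0.51 (adjusted p = 0.161 over 36 libraries and 0.0627 over 24). Hspa1a, its near-identical neighbour, had 28, 35 and 10 reads at ZT0 and 1, 3 and 2 reads at ZT12, and it was the member that fell in the fit on 24 libraries (adjusted p = 0.0345; 0.161 over 36). Reads of the 2 genes can be split between them by the counting, so they are best read together. The heat shock element core was also counted by gene, over 24 promoters of the 18 list genes matched to RefSeq. It (GAANNTTC, 7.86% of all promoters) stood in 10 of those genes. Hspa1a and Hspa1b have the same 48 bases around it, printed because the pair shares them, with the element core in capitals.
Hspa1a, chr17:34972233-34972280, minus strand: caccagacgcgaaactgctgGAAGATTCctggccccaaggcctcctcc
Hspa1b, chr17:34959315-34959362, minus strand: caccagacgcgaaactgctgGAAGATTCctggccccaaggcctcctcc

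Co-chaperones differed in size. Dnajb1, which stimulates HSP70, was at 25.6, 32.8 and 43.9 CPM at ZT0 and 15.8, 14.9 and 19.8 CPM at ZT12, a log2 fold change of -1.04 ± 0.27. In WT it was at 21.1 to 32.6 CPM at ZT0 and 25.1 to 40.9 CPM at ZT12, and the interaction missed the threshold (adjusted p = 0.0632). Bag3, a partner of HSP70 in protein clearance, was at 27.5, 64.0 and 68.2 CPM at ZT0 and 15.7, 21.6 and 26.7 CPM at ZT12. Dawn and dusk values did not overlap for either gene. Other co-chaperones were closer to 0, with log2 fold changes of -0.33 ± 0.20 for Dnaja1, -0.37 ± 0.18 for Dnajb4 and -0.20 ± 0.13 for Ahsa1. Of the chaperones present in unstressed cells, Hspa8 had a log2 fold change of -0.38 ± 0.25, Hsp90aa1 of -0.12 ± 0.25 and Hspd1 of -0.05 ± 0.14.

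Cirbp, an RNA-binding protein that mammalian cells make more of in mild cold (chr10:79628730-79635531 on mm9), had the opposite sign. It was at 30.4, 24.1 and 18.8 CPM at ZT0 and 57.5, 38.8 and 45.5 CPM at ZT12, with no overlap, and the log2 fold change was 1.04 ± 0.24. Cirbp rose in the fit on 24 libraries (adjusted p = 0.032), and its adjusted p was 0.134 over 36. Its knockout mean was 47.7 CPM at ZT4 and 31.2 CPM at ZT8, so the 4-hour samples did not lie on one slope from dawn to dusk. In WT Cirbp was at 22.5 to 26.2 CPM at ZT0 and 16.95 to 30.5 CPM at ZT12, and the interaction was 1.10 ± 0.33 (adjusted p = 0.105). Rbm3, the other cold-inducible gene of the list, was at 45.2 to 54.0 CPM at ZT0 and 51.0 to 72.1 CPM at ZT12 in the knockout, with overlapping values.

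**Figure D4:**
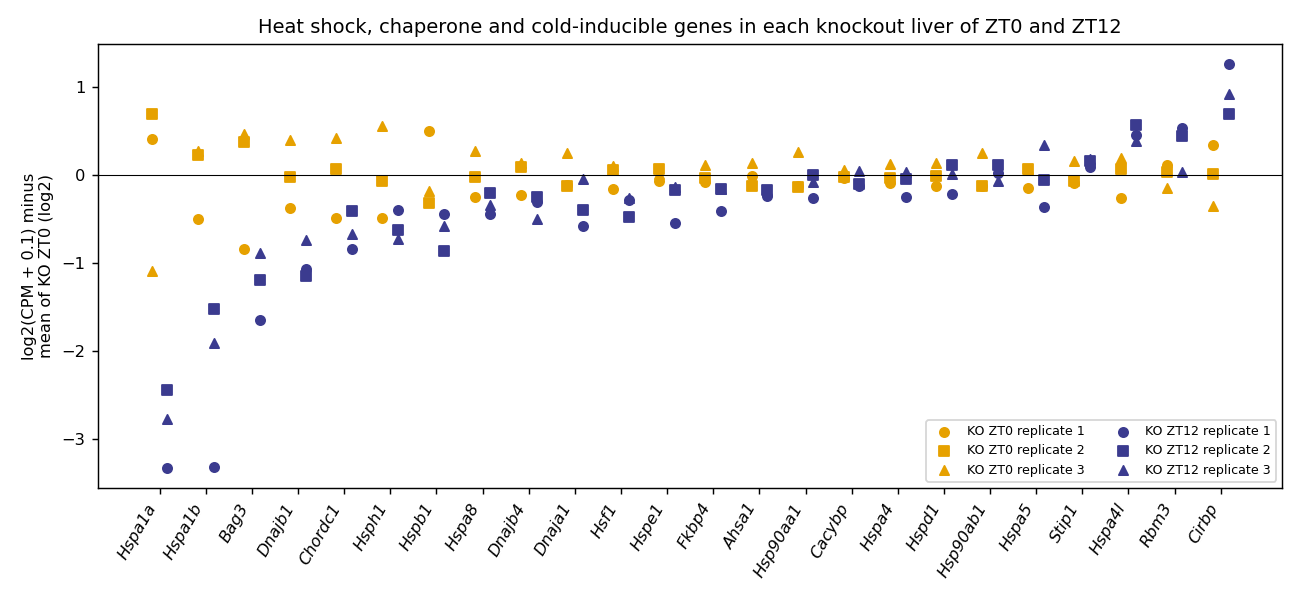
Each knockout liver of ZT0 (yellow) and ZT12 (dark blue) for 22 heat shock and chaperone genes and the cold-inducible Rbm3 and Cirbp, as log2(CPM + 0.1) minus the mean of the 3 ZT0 livers; marker shapes are replicates. Hspa1a, Hspa1b, Bag3 and Dnajb1 lie below 0 in every ZT12 liver and Cirbp lies above it.

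Atf4, the main factor of the amino acid and stress response, was at 145, 198 and 148 CPM at ZT0 and 98.0, 104 and 107 CPM at ZT12, and it fell in the fit on 24 libraries (adjusted p = 0.0377; 0.136 over 36). Ddit3, the CHOP factor of the same response, was at 7.07, 16.9 and 18.4 CPM at ZT0 and 5.70, 6.64 and 4.72 CPM at ZT12, and it fell too (adjusted p = 0.0493; 0.136 over 36). Not all of the list of 25 followed: 3 were lower and 3 higher at an unadjusted p under 0.05, with Trib3 at 1.32 to 2.01 CPM at ZT0 and 2.08 to 14.1 CPM at ZT12. Trib3 was highest in the 8-week female.

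Of 20 ribosome biogenesis genes, which make and assemble ribosomal RNA, 7 were lower and 1 higher at an unadjusted p under 0.05, against 5.42% and 4.92% of all genes, with a median of -0.39. Nolc1, a nucleolar phosphoprotein, was at 39.1, 70.7 and 60.8 CPM at ZT0 and 18.1, 22.6 and 34.7 CPM at ZT12. Nop56, a core protein of box C/D particles, was at 29.96, 54.8 and 57.0 CPM at ZT0 and 26.5 to 28.3 CPM at ZT12. In WT Nop56 was higher at dusk by 0.53, and its interaction was called (-1.32, adjusted p = 0.0403), as was that of Rrn3, a factor of RNA polymerase I (-1.51, adjusted p = 0.0166). In the 13.9-week mice alone 11 of the 20 were lower at an unadjusted p under 0.05, and it was 11 and 4 without KO ZT0 replicates 1 and 3. The 25 cytosolic ribosomal protein genes had a median of 0.02, with none at an unadjusted p under 0.05.

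Amino acid breakdown and urea cycle genes lay on the other side. Their summed level was 28635 to 30356 CPM at ZT0 and 36754 to 38192 CPM at ZT12, so the groups did not overlap. Of 25 tested, 22 had a positive log2 fold change, 6 were higher and none lower at an unadjusted p under 0.05 against 4.92% of all genes, and in 11 all dusk values lay above all dawn values against 9.64% of all genes. Cps1, the entry enzyme of the urea cycle, was at 4573, 5344 and 5942 CPM at ZT0 and 8483, 6816 and 7678 CPM at ZT12. Ass1, argininosuccinate synthase, was at 3282, 2927 and 3613 CPM at ZT0 and 5412, 5460 and 5112 CPM at ZT12. Arg1, arginase, was at 1313 to 1542 CPM at ZT0 and 1975 to 2484 CPM at ZT12. Aass, the first enzyme of lysine breakdown, was at 423, 389 and 434 CPM at ZT0 and 634, 673 and 556 CPM at ZT12, and of the list it alone rose in the fit on 24 libraries (adjusted p = 0.0198; 0.384 over 36). The median of the list was 0.24 in the knockout and 0.20 in WT, and 1 of its genes had a called interaction. In the 13.9-week mice alone 7 were higher at an unadjusted p under 0.05, without KO ZT12 replicate 1 it was 3, and with body weight as a covariate it was 1.

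The 20 tested genes of feeding and SREBP1c lipogenesis had a median of 0.05, and none had an unadjusted p under 0.05. Fasn, fatty acid synthase, was at 101, 244 and 313 CPM at ZT0 and 112, 332 and 196 CPM at ZT12. The 25 genes of fatty acid oxidation under PPARalpha had a median of -0.02, with none at an unadjusted p under 0.05; Cpt1a, the entry step to mitochondria, was at 185 to 308 CPM at ZT0 and 197 to 269 CPM at ZT12. Of 24 cholesterol synthesis genes, 23 had a negative log2 fold change with a median of -0.62, and 3 (Fdft1, Cyp51 and Mvd) were lower at an unadjusted p under 0.05. All 3 had overlapping groups, and the median moved with single libraries. It was -0.33 with none at that p without KO ZT12 replicate 1, -0.20 with none without KO ZT0 replicate 2, -0.88 with 8 without KO ZT0 replicate 1, -0.84 with 5 without KO ZT12 replicate 3, and -0.39 with none with body weight as a covariate.

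Of 18 fasting-induced genes, 16 had a positive log2 fold change with a median of 0.38, and 3 were higher at an unadjusted p under 0.05 against 4.92% of all genes. Without KO ZT12 replicate 1 the median was 0.17 with 1 gene, in the 13.9-week mice alone it was 0.26 with 1, without KO ZT12 replicate 2 it was 0.49 with 5, and with body weight as a covariate it was 0.15 with 0. Igfbp1, a binding protein that insulin represses, was at 43.4, 7.17 and 14.7 CPM at ZT0 and 377, 52.8 and 103 CPM at ZT12. The dusk values were all higher, but they spread widely, and the 8-week female was again the extreme. Ppargc1a, a coactivator of gluconeogenesis, was at 6.59, 5.36 and 10.3 CPM at ZT0 and 30.2, 17.3 and 12.2 CPM at ZT12. Pck1, which makes phosphoenolpyruvate for glucose, was at 598 to 3104 CPM at ZT0 and 1750 to 3876 CPM at ZT12, with overlapping values, whereas in WT it was called higher at ZT12 by 2.75; the interaction was not called (adjusted p = 0.17).

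Sterol export gave the 2 calls of the mice matched in age and sex number, though not in weight. Abcg5 and Abcg8 encode the 2 chains of the transporter that sends cholesterol into bile. In the 13.9-week mice alone their log2 fold changes were 1.19 and 1.31, with an adjusted p of 0.0135 for both. Over all 3 mice a time, Abcg5 was at 229, 129 and 109 CPM at ZT0 and 274, 258 and 285 CPM at ZT12, with no overlap. Abcg8 was at 209, 114 and 80.5 CPM at ZT0 and 298, 194 and 291 CPM at ZT12, with overlap, because the 9.3-week male at ZT0 was high in both. Their adjusted p over 36 libraries was 0.303 and 0.203. With body weight as a further covariate in the fit on 24 libraries, their log2 fold changes were 0.53 and 0.57 (adjusted p = 0.595 and 0.582). In WT both were called higher at dusk, by 1.29 and 1.09.

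The factors Klf9 and Klf3 and the enzyme gene Gda rose with no overlap in the fit on 24 libraries. Klf9, a factor that glucocorticoids induce, was at 47.9, 33.9 and 25.7 CPM at ZT0 and 107, 51.0 and 69.4 CPM at ZT12 (adjusted p = 0.033; 0.234 over 36). Klf3, a repressor of the same family, was at 12.2, 13.0 and 13.4 CPM at ZT0 and 25.9, 19.004 and 25.0 CPM at ZT12 (adjusted p = 0.0112; 0.231 over 36), and in WT it was at 15.1 to 15.4 and 23.2 to 31.7 CPM. Gda, guanine deaminase, was at 15.4, 19.9 and 18.96 CPM at ZT0 and 31.5, 35.5 and 26.3 CPM at ZT12 (adjusted p = 0.0112; 0.134 over 36). Gda and Exoc6 were among the 4 calls that were left without KO ZT12 replicate 1. The 18 tested glucocorticoid-responsive genes had a median of 0.36 in the 36-library fit, with 12 positive and 6 negative. Of these, 2 were higher and 0 lower at an unadjusted p under 0.05. Their median was 0.07 without KO ZT12 replicate 1 and -0.29 with body weight as a covariate.

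Gda and Klf3 belong to a small set that was called in both genotypes with the same sign. Genes called in the knockout alone could also have the WT sign. Of the 142 genes called in the knockout in the fit on 24 libraries, 21 were also among the 1460 (11.1%) called there in WT, which is 14.8% of the first list and 1.44% of the second. Of these 21 genes, 15 had the same sign. Gda was at 32.8 to 34.9 CPM at ZT0 and 58.1 to 75.5 CPM at ZT12 in WT, a log2 fold change of 0.91 beside 0.70 in the knockout. Pde3b, a phosphodiesterase under insulin control, was at 82.2 to 96.5 CPM at ZT0 and 118 to 136 CPM at ZT12 in the knockout, and at 77.7 to 94.2 and 119.8 to 137 CPM in WT. Kalrn, a guanine nucleotide exchange factor, was at 14.3 to 16.6 CPM at ZT0 and 23.5 to 29.6 CPM at ZT12 in the knockout. The adjusted p of Pde3b and Kalrn was 0.0198 over 24 libraries, and 0.234 and 0.134 over 36.

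The remaining 6 of those 21 genes had opposite signs. Of the 142 genes, 28 were among the 560 (4.24%) with a called interaction in the same fit. Rnf125, a ubiquitin ligase, was at 70.1, 63.6 and 35.9 CPM at ZT0 and 230.4, 117 and 119 CPM at ZT12 in the knockout, but at 56.3 to 107 and 16.7 to 32.4 CPM in WT. Its interaction was 3.32 ± 0.52 (adjusted p = 0.000362 over 36 libraries). Ccdc109a, the mitochondrial calcium uniporter (chr10:58909732-59079440 on mm9), was at 30.4, 23.9 and 20.2 CPM at ZT0 and 51.4, 37.4 and 38.7 CPM at ZT12 in the knockout, and at 25.4 to 29.6 and 10.0 to 15.6 CPM in WT. Gldc, of the glycine cleavage system (chr19:30172939-30249908 on mm9), was at 258, 251 and 261 CPM at ZT0 and 458, 322 and 341 CPM at ZT12 in the knockout, and at 236 to 266 and 121 to 143 CPM in WT. At dawn the knockout and WT values of Ccdc109a and Gldc overlapped, and at dusk they did not.

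Esrp2, a splicing regulator of epithelial cells, was at 99.3 to 101 CPM at ZT0 and 120.1 to 152 CPM at ZT12 in the knockout, with an interaction of 0.77 ± 0.19 (adjusted p = 0.0327). Nudt3, a diphosphoinositol phosphohydrolase, had the reverse order, at 30.8 to 38.1 CPM at ZT0 and 21.4 to 24.1 CPM at ZT12 in the knockout, and at 25.6 to 27.7 and 31.2 to 38.4 CPM in WT (interaction -1.002 ± 0.25, adjusted p = 0.0409). The sixth is a predicted gene and is not named.

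**Figure D5:**
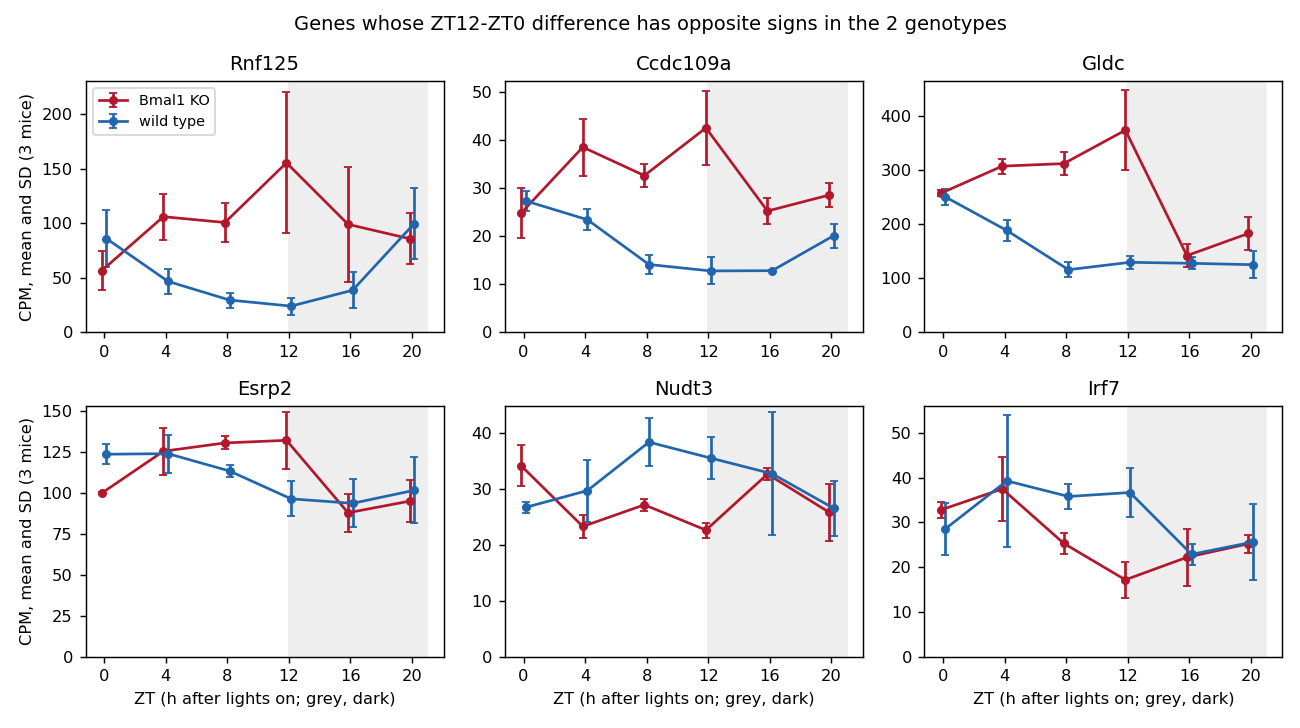
Mean CPM with SD (3 mice) at 6 times of day in Bmal1 knockout (red) and wild type (blue) for the 5 named genes called with opposite signs in the 2 genotypes and for Irf7; grey marks the dark phase. Gldc means at ZT0 and ZT12 are 257 and 374 CPM in the knockout and 250.2 and 129 CPM in wild type.

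Among the genes that fell, Pcolce, which helps process collagen, was at 6.26, 5.83 and 6.81 CPM at ZT0 and 2.77, 2.71 and 1.52 CPM at ZT12 (adjusted p = 0.0112 over 24 libraries, 0.136 over 36). Col14a1, a collagen of fibril surfaces, was at 31.6, 27.7 and 41.8 CPM at ZT0 and 18.9, 12.4 and 7.04 CPM at ZT12, and Igfbp3, the main carrier of IGF1, was at 16.3 to 24.9 and 6.16 to 10.5 CPM. All 10 stellate cell and fibroblast markers had a negative log2 fold change, with a median of -0.69, and 2 of them, Col1a2 and Col3a1, an unadjusted p under 0.05. The median was -1.05 with 5 genes without KO ZT12 replicate 1, and -1.01 with 7 genes in the 13.9-week mice alone. The summed level of these markers was 266 to 389.9 CPM at ZT0 and 112 to 350.3 CPM at ZT12, and in WT their median was -0.40. The part of cell composition in these values was not tested.

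Transcript length and base composition moved with the calls. Over genes, which are not replicates, the knockout log2 fold change had a rank correlation of -0.16 with transcript GC content and 0.20 with transcript length. The genes that rose in the fit on 24 libraries had a median transcript length of 4731 bases and those that fell 2573, against 3302 over all tested genes. Among the knockout libraries of ZT0 and ZT12, KO ZT12 replicate 1 stood apart in length. The rank correlation over genes between its deviation and transcript length was 0.294, against -0.124 to 0.0675 in the other 5 libraries. WT ZT12 replicates 2 and 3 had similar values, 0.284 and 0.267, and WT ZT12 replicate 1 had 0.0446. With each library's GC and length trends removed, 132 genes were called in the fit on 24 libraries, of which 98 were among the 142, and 0 in the fit on 36.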

How the data were processed

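Liver RNA of 36 mice was sequenced as stranded poly(A) libraries. Reads were handled with CASAVA and STAR 2.4.0f1 on mm9, per the submitters' processing notes; the gene counter is not given in the sources used here. The authors deposited whole-number read counts per gene, used as deposited, and the near-equal totals (12657858 to 12839653) are in the table itself, with no stated step behind them. Counts without molecular identifiers are not independent molecules.

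Genes passing edgeR's filterByExpr (minimum count 10, minimum total 15) were fitted with TMM factors, group means and labelled sex, in R 4.3.3 with edgeR 4.0.16, using the quasi-likelihood F test. Benjamini-Hochberg adjustment ran over all 13201 genes, and calls had an adjusted p under 0.05. DESeq2 1.42.0 was an alternative. Fold changes are log2 of ZT12 over ZT0, with SE from the F statistic. The scripts were tested on simulated data. Replicate pairs differed by 18.5 to 80.8 times the Poisson variance, so none was merged.

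The comparison, gene lists and tests were chosen with earlier results of these data known, and lists are described by counts and medians only. Genes were named as list members, by smallest p or largest change among calls, by smallest interaction p, and by opposite sign. With no call in the 36-library fit, the rule was applied to the calls of the 24-library fit, a choice made after the values were seen. Predicted genes were left out. Some further genes were chosen after their values were seen, as said beside them or, for those with an unadjusted p only, by list membership. Promoters come from RefSeq on GRCm38.p6 and were matched by symbol; counts use mm9, and no coordinates were converted. Results of a few single genes are not reported here.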

Additional observations from a re-analysis of the deposited data

Results flagged for a closer look

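The genes here had a dusk-dawn difference that differed between the genotypes by the interaction test itself, at an adjusted p under 0.05 over 13201 genes; each value is the knockout log2 difference minus the wild-type one. Among core clock genes the values were Dbp -6.14, Usp2 -4.99, Per3 -4.62, Per1 -3.93, Per2 -3.56, Tef -2.69 and Nr1d2 -1.84. The same list gave Arntl 3.47 and Nfil3 1.83 with the opposite sign. Gm129, the repressor Ciart, had -5.95, resting on few reads in the knockout. Npas2 had 8.99, which depends on the prior count because wild-type livers at ZT12 held 1 read in all, so it is no measure of size.

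Of metabolic and signalling genes, those with a more positive difference in the knockout were Dtx4 2.90, Chka 2.78, Clpx 2.62, Cldn1 2.45, Gclc 1.25 and Stat5b 1.12. The named genes called in both genotypes with opposite signs in the fit on 24 libraries had Rnf125 3.32, Ccdc109a 1.88, Gldc 1.49, Esrp2 0.77 and Nudt3 -1.002. Opposite signs without a call in each genotype were common. Of the 178 genes with a called interaction over 36 libraries, 138 had opposite signs in the genotypes. A more negative difference was found for Pfkfb3 -3.59, Rrn3 -1.51, Nop56 -1.32, Irf7 -1.29 and Mfap1b -1.11.

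The adjusted p of Per1, Irf7, Nudt3, Nop56 and Mfap1b lay between 0.0383 and 0.0452, close to the threshold.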

How the results depend on the processing

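The knockout count of 0 genes over 36 libraries was 44 with DESeq2, 142 with the 24 libraries of ZT0 to ZT12, 2 with mice of 13.9 weeks alone, and 5 without the WT ZT16 library whose reads go against its sex label; leaving out 1 of the 6 libraries gave 0 to 9, the 9 without KO ZT12 replicate 3. It was 0 with the libraries of ZT0 and ZT12 alone and with the knockout libraries alone. It was also 0 with the other alternatives tried: covariates, size factors, filters, GC and length trends, a fold threshold, or one sex. The count of 142 over 24 libraries was 34 with no sex covariate, 2 with mice of 13.9 weeks alone, 581 with DESeq2, 45 at an absolute log2 fold change of at least 1, and 0 with body weight as a covariate, with knockout libraries alone, with males alone and with females alone; leaving out 1 library gave 0 to 509. Of the 142 genes, 137 or more had the same sign in every one of these fits. They were called from these same libraries, so the shared signs are no independent support. The wild-type count of 576 was 218 with mice of 13.9 weeks alone, 923 with the libraries of ZT0 and ZT12 alone, 1460 with 24 libraries, 55 with males alone, 123 with females alone and 292 at an absolute log2 fold change of at least 1; leaving out 1 library gave 260 to 449. The interaction count of 178 was 67 with mice of 13.9 weeks alone, 296 with DESeq2, 275 with GC and length trends removed, 362 with the libraries of ZT0 and ZT12 alone, 560 with 24 libraries, 1 with males alone (Dbp) and 17 with females alone; leaving out 1 library gave 107 to 163. Fits on one sex or age use fewer mice; otherwise the cause was not tested. Over 5215 pairs of a named gene and an alternative, 4915 kept their side of the threshold, 116 passed it, 184 lost it and 0 reversed while called. No paired analysis was possible because the labels give no replicate numbers that groups share. Alternatives on the 24 libraries and the GC and length trends were chosen after seeing the data. Depth was even across libraries, and some genes, such as Hspa1a, had few reads. Whether the number of mice or of reads limits the precision was not tested.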
